A study of Mus musculus with 24 samples.

Results

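Gene expression in the thoracic aorta of mice fed celecoxib was compared with that of mice fed rofecoxib, over 8 libraries of each drug out of 24 libraries in the series. Libraries were placed by the drug named in their labels, and each gene with enough counts, 14451 of 25941, was tested. All animals were adult male wild-type C57BL/6 mice of 10 to 12 weeks, and the tissue was taken at zeitgeber time 11, in hours from lights on. For 3 weeks they ate regular chow with celecoxib at 100 mg/kg/day, the same chow with rofecoxib at 50 mg/kg/day, or the chow with no added drug (8 control libraries, used here for levels and for the estimate of spread). The doses were not matched, so a difference between the drugs cannot be told apart from one between these doses, and plasma levels were not analysed here.

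Cyclooxygenases convert arachidonic acid to prostaglandin H, which tissue-specific synthases turn into prostacyclin, thromboxane and the other prostanoids. Celecoxib, a diarylpyrazole sulfonamide, and rofecoxib, a methylsulfone-bearing diarylfuranone, both inhibit the inducible cyclooxygenase encoded by Ptgs2 in preference to the constitutive one encoded by Ptgs1. In the vessel wall, endothelium and smooth muscle make prostacyclin, which relaxes the artery and restrains platelets, and fibroblasts of the adventitia and smooth muscle lay down its collagens, proteoglycans and elastic fibres.

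Levels are CPM, each count as a share of its library's total, scaled by TMM library factors, and log2 fold changes are celecoxib minus rofecoxib, ± SE. A gene was called at a Benjamini-Hochberg adjusted p under 0.05 in edgeR's quasi-likelihood test, with no minimum fold. Library totals ran from 21652432 to 21687906 counts, and the mean correlation of a library with others of its group was 0.981 to 0.988, apart from control 6 at 0.971. Smooth muscle markers such as Acta2 and Myh11 summed to 60086 to 73183 CPM with celecoxib and 61742 to 73720 CPM with rofecoxib, and none of the 22 was at 0 in all libraries. Rofecoxib 2 stood apart in cardiac muscle markers, with a summed level of 669 CPM against at most 137 CPM in the other rofecoxib libraries. Each sample title also holds an unexplained number, and these numbers form 1 block per drug, so whatever they stand for cannot be told apart from the drugs.

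Of the 14451 genes tested, 3275 (22.7%) were called, 1661 (11.5%) higher and 1614 (11.2%) lower with celecoxib than with rofecoxib. The median absolute log2 fold change of called genes was 0.27, 274 genes passed 1.5-fold and 25 passed 2-fold. A large share of the calls followed the GC content of the transcript. The GC slope of a library, in log2 CPM per unit GC fraction, was 0.78 ± 0.91 with celecoxib and -1.08 ± 0.96 with rofecoxib (SD, n = 8 each; two-sided exact permutation p = 0.0017), and 0.30 ± 0.85 in controls. It was below 0 in 8 of 8 rofecoxib libraries and 2 of 8 celecoxib libraries, celecoxib 1 and 2. Slopes also differed by replicate number within groups. They ran from -0.824 to 0.0796 in controls 1 to 4 and from 0.107 to 1.396 in controls 5 to 8. Rofecoxib 7 and 8 were at -2.27 and -2.74, and rofecoxib 1 to 6 at -1.16 to -0.162. Across 12091 genes, which are not independent replicates, the Spearman correlation of fold change with GC was 0.59. In the decile of genes with the highest GC, 45.2% were called higher and 0.414% lower, and in the decile with the lowest GC 0.826% were called higher and 35.1% lower.

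With a smooth GC trend of each library as an offset in the fit, 1430 genes (9.9%) were called, 761 (5.27%) higher and 669 (4.63%) lower, and the correlation with GC was 0.015. In the highest GC decile, 7.53% were then called higher and 4.96% lower. Both fits called 1065 genes (7.37%), each in 1 direction, with 573 (3.97%) higher and 492 (3.4%) lower. Of these, 189 passed 1.5-fold, 96 higher and 93 lower, and 19 passed 2-fold. What gave the libraries different GC slopes was not tested, so results below are given with and without GC correction, and a call is described as held where both fits made it.

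**Figure D1:**
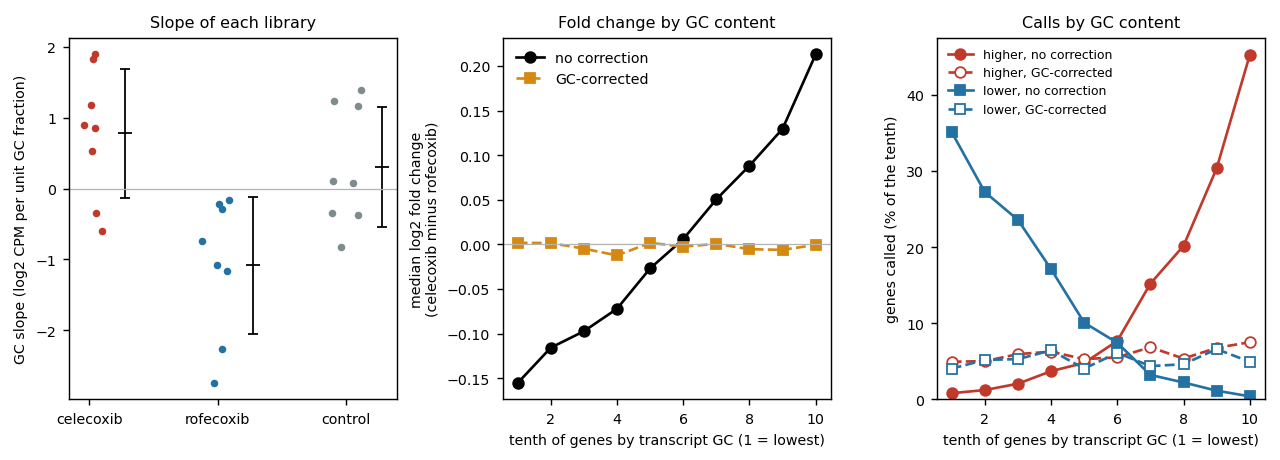
Left, the slope of log2 CPM on transcript GC fraction in each library (points; bar and whisker are the mean and SD of 8 libraries). Middle and right, the median log2 fold change and the percentage of genes called in each decile of GC content, with and without GC correction; without it the median ran from -0.16 in the lowest decile to 0.21 in the highest.

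In the prostanoid pathway, the clearest difference was in the drug target itself. Ptgs2, the inducible cyclooxygenase (ENSMUSG00000032487, mm9 chromosome 1 from 151947052 to 151955342), ran from 13.9 to 25.6 CPM (median 22.3) with celecoxib and from 30.9 to 53.4 CPM (median 42.9) with rofecoxib. The libraries of the drugs did not overlap, which 241 of 14451 genes (1.67%) showed, 117 (0.81%) with celecoxib above and 124 (0.858%) with it below. The log2 fold change was -1.06 ± 0.23 (edgeR adjusted p = 0.00348), and -0.91 after GC correction (adjusted p = 0.0119). Control libraries spanned both drugs, from 13.3 to 62.4 CPM (median 37.0). Controls 1 to 4 were at 42.9 to 62.4 CPM and controls 5 to 8 at 13.3 to 31.1 CPM. Against control, edgeR called neither drug, with log2 fold changes of -0.81 for celecoxib (adjusted p = 0.0696) and 0.26 for rofecoxib (adjusted p = 0.471).

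The promoter of Ptgs2 is shown because Ptgs2 belongs to the immediate early genes described below, and with it that of Atf3, the member with the largest difference. Each of the sequences given here is RefSeq's window on GRCm38.p6, 250 bases before the gene's start to 50 after it, read 5′ to 3′. The run in capitals in Ptgs2 (chr1:150099781-150100080, plus strand) holds the cyclic AMP response element core TGACGT, read here on the other strand, overlapping the E-box CACGTG. In Atf3 (chr1:191183284-191183583, minus strand) the capitals mark the same core, again on the other strand.
Ptgs2: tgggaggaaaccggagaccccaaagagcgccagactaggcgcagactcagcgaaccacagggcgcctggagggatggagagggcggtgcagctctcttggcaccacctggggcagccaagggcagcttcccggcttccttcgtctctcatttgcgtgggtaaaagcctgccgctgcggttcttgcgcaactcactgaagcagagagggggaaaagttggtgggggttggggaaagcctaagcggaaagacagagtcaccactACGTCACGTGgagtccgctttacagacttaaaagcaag
Atf3: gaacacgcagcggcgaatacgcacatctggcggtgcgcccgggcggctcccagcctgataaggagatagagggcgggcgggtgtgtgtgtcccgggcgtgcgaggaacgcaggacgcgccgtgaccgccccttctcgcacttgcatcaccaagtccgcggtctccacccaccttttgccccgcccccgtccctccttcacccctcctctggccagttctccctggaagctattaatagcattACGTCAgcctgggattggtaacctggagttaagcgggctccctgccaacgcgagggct
Both strands were searched in the 9923 genes tested that had a window, and 11.65% held TGACGT and 10.14% held CACGTG. Of 10 immediate early genes called lower, 3 held TGACGT (Atf3, Nr4a3 and Ptgs2) and 2 held CACGTG (Klf6 and Ptgs2). In the whole list, called or not, 6 of 21 members with a window held TGACGT and 5 of 21 held CACGTG. Btg2, Dusp1 and Fos held TGACGT and were not called, and Dusp1, Egr2 and Klf4 held CACGTG and were not called. A match describes the letters only.

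Of the other enzymes of prostanoid synthesis 1 was called. Of 14 tested, Ptgis was called higher and Ptgs2 lower, with a median log2 fold change of 0.09 (0.01 after GC correction), against -0.0026 for all genes tested. The shares of all genes called were 11.5% higher and 11.2% lower. Ptgis, the prostacyclin synthase, was at 909.7 to 1315 CPM (median 1217) with celecoxib and 834 to 1109 CPM (median 923) with rofecoxib, and these ranges overlapped. Its log2 fold change was 0.30 ± 0.08 (edgeR adjusted p = 0.00940), but 0.16 and not called after GC correction (adjusted p = 0.127).

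Ptgs1, the constitutive cyclooxygenase, was at 14.7 to 24.1 CPM (median 17.1) with celecoxib and 10.6 to 23.9 CPM (median 17.6) with rofecoxib, a log2 fold change of 0.04 with a 95% interval of -0.24 to 0.33 (edgeR adjusted p = 0.855). Its interval leaves room for a modest difference in either direction. Ptges, a prostaglandin E synthase, had a log2 fold change of 0.20 (95% interval -0.18 to 0.59) and Tbxas1, the thromboxane synthase, 0.25 (-0.15 to 0.65). Neither was called (edgeR adjusted p = 0.469 and 0.373).

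Among 13 receptors, transporters and breakdown enzymes of prostanoids, 2 were called higher and none lower, against 11.5% and 11.2% of all genes tested. After GC correction none was called, with 2 at an unadjusted p under 0.05 in edgeR. Tbxa2r, the thromboxane receptor, had a log2 fold change of 0.30 ± 0.08 without GC correction (edgeR adjusted p = 0.0149) and 0.04 with it (adjusted p = 0.639). For Ptger1, an E-type receptor, the values were 0.28 ± 0.07 (edgeR adjusted p = 0.0104) and 0.10 (adjusted p = 0.151). Ptgir, the prostacyclin receptor, was not called at 0.34 (95% interval 0.00 to 0.67, edgeR adjusted p = 0.136).

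Immediate early genes, which cells switch on within minutes of a stimulus and to which Ptgs2 belongs, included several called lower with celecoxib than with rofecoxib. Of 25 tested, 10 were called lower, against 11.2% of all genes tested, and 1, Maff, higher. After GC correction 10 were lower, against 4.63% of all genes, and none higher, and 9 were lower in both fits. The median log2 fold change was -0.26 (-0.37 after GC correction). Members called lower in both were Atf3, Fosb, Fosl2, Ier5, Jun, Klf6, Nr4a1, Nr4a3 and Ptgs2.

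Atf3, a stress-induced transcription factor (ENSMUSG00000026628, mm9 chromosome 1 from 192993973 to 193007421), ran from 26.4 to 113 CPM (median 53.5) with celecoxib and 125 to 261 CPM (median 194) with rofecoxib. The drugs did not overlap, and the log2 fold change was -1.74 ± 0.38 (edgeR adjusted p = 0.00386; -1.77 after GC correction, adjusted p = 0.00863). Jun, a subunit of AP-1, was at 83.0 to 130.0 CPM (median 106) against 133 to 351 CPM (median 194), again without overlap (-0.94 ± 0.22, edgeR adjusted p = 0.00610). Klf6, a zinc finger factor, separated the drugs as well, at 232 to 307 CPM (median 275) against 315 to 431 CPM (median 388) (-0.50 ± 0.12, edgeR adjusted p = 0.00840).

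Nr4a1, an orphan nuclear receptor, was at 60.3 to 127 CPM (median 97.5) with celecoxib and 123 to 394 CPM (median 171) with rofecoxib. The ranges overlapped slightly, and the log2 fold change was -1.18 ± 0.31 (edgeR adjusted p = 0.0118). The list was not uniform. Fos, the partner of Jun in AP-1, was at 13.5 to 39.0 CPM (median 24.8) and 15.1 to 57.8 CPM (median 30.9) and was not called (-0.41, 95% interval -1.08 to 0.25, edgeR adjusted p = 0.379). Maff, a small Maf factor, was called higher without GC correction (0.30 ± 0.07, edgeR adjusted p = 0.00656) and not with it (0.14, adjusted p = 0.238).

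Control libraries varied widely in these genes, with a split by replicate number in several. In controls 1 to 4 and 5 to 8, Atf3 was at 131 to 296 CPM and 37.2 to 72.7 CPM. Jun was at 174 to 289 CPM and 90.6 to 113 CPM, and Klf6 at 311 to 459 CPM and 196 to 273 CPM. Fos overlapped, at 34.8 to 101.5 CPM and 20.2 to 50.9 CPM. What set these controls apart was not tested. Atf3 in controls ran from 37.2 to 296 CPM (median 102) and Jun from 90.6 to 289 CPM (median 144), so single controls lay at the level of each drug. The log2 fold changes of Atf3 against control were -1.10 for celecoxib (edgeR adjusted p = 0.130) and 0.64 for rofecoxib (adjusted p = 0.262), and neither was called. With 1 drug library left out in turn (16 leave-one-out fits), 8 to 10 members were called lower, and 6 to 12 after GC correction (6 without celecoxib 5, 6 or 8), and 1 to 4 were called higher (4 without celecoxib 2); the call of Fosb was lost in 10 of 16 such fits. After GC correction the call was lost in 9 of 16 such fits for Klf6, 7 for Nr4a3 and 13 for Fosb.

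**Figure D2:**
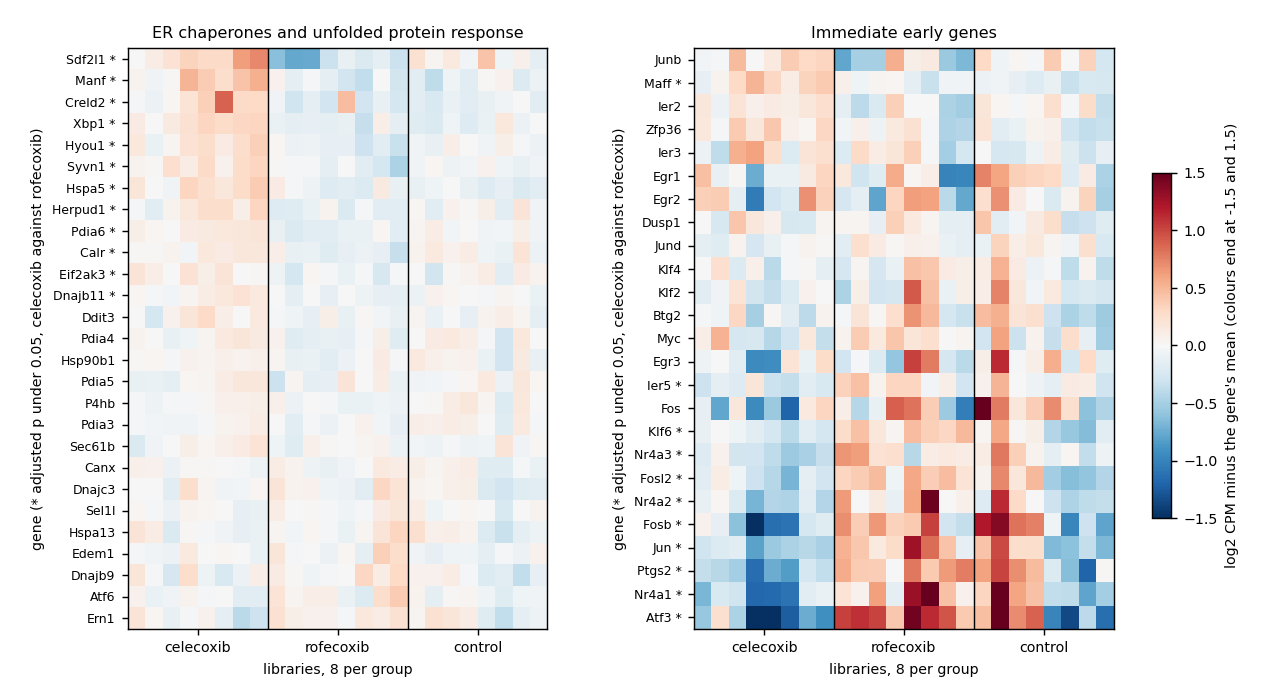
Log2 CPM of each gene minus its mean over the 24 libraries (colour; red higher, blue lower), for 27 genes of the endoplasmic reticulum stress response (left) and 25 immediate early genes (right), ordered by log2 fold change. Immediate early genes at the bottom of the right panel, such as Atf3, were low in celecoxib libraries, high in rofecoxib libraries and mixed in controls. Atf3 was high in controls 1 to 4 and low in controls 5 to 8.

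Of 21 chaperones and factors of the cytosolic heat shock response, 6 were called lower with celecoxib and 1 higher, and 14 were not called. After GC correction 5 of these 6 were lower and the same 1 higher, and the median moved from -0.16 to -0.06. Among all genes tested, 11.2% were called lower without the correction and 4.63% with it. The lower count was 3 without rofecoxib 1 or 7, and after GC correction it was 3 in 8 of the 16 leave-one-out fits. Bag3, a co-chaperone of HSP70, was called lower in both fits (-0.39 ± 0.14, edgeR adjusted p = 0.0444), a call lost in 9 of the 16. Dnajb1, another HSP70 co-chaperone, was at 56.0 to 97.8 CPM (median 67.9) with celecoxib against 102 to 246 CPM (median 125) with rofecoxib. There was no overlap, and the log2 fold change was -1.12 ± 0.25 (edgeR adjusted p = 0.00467; -1.17 after GC correction, adjusted p = 0.00981). Without a drug, Dnajb1 was at 128 to 157 CPM in controls 1 to 4 and 56.1 to 78.9 CPM in controls 5 to 8.

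Hspa1a, an inducible HSP70 gene, was at 87.3 to 195 CPM (median 149) against 145 to 450.5 CPM (median 201) (-0.93 ± 0.26, edgeR adjusted p = 0.0156). Its near-identical copy Hspa1b had -0.86 ± 0.26 (edgeR adjusted p = 0.0229), and reads may be divided between the pair, so they are not separate evidence; the call of Hspa1b was lost in 2 of the 16 leave-one-out fits. Dnajb4, of the same family as Dnajb1, had -0.85 ± 0.23 (edgeR adjusted p = 0.0124), and its GC-corrected call was lost in 9 of the 16. Hsf1, the transcription factor of this response, was in contrast higher, at 60.2 to 82.3 CPM (median 75.2) against 46.9 to 67.4 CPM (median 61.2) (0.31 ± 0.07, edgeR adjusted p = 0.00651; 0.25 after GC correction, adjusted p = 0.0159). Controls were split here too. In controls 1 to 4 and 5 to 8, Hspa1a was at 326 to 361 CPM and 160 to 180 CPM. Dnajb4 was at 679 to 854 CPM and 277 to 360 CPM, and Hsf1 at 56.8 to 65.2 CPM and 70.5 to 74.4 CPM. What set these controls apart was not tested.

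Cyr61, a secreted matrix protein and target of the growth regulators YAP and TAZ, was lower with celecoxib as well. It ran from 178 to 536 CPM (median 319) with celecoxib and 436 to 1173 CPM (median 726) with rofecoxib, with a log2 fold change of -1.14 ± 0.26 (edgeR adjusted p = 0.00568; -1.19 after GC correction, adjusted p = 0.01000). Cyr61 was at 437 to 837 CPM in controls 1 to 4 and 203 to 400 CPM in controls 5 to 8. Of 16 genes of the YAP and TAZ list, 3 were called lower in both fits, Amotl2 (-0.43 ± 0.11), a binding partner of YAP, Lats1 (-0.33 ± 0.08), the kinase that inhibits it, and Cyr61. The list's median was -0.08 (-0.06 after GC correction), and 3.4% of all genes tested were called lower in both fits. Going the other way, 2 members, Tead2 and Tead3, were called higher without GC correction, against 11.5% of all genes tested. After it 1 member, Yap1, was called higher, against 5.27%. No member was called higher in both fits.

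Chaperones of the endoplasmic reticulum fold secreted proteins and are induced when unfolded protein builds up there. Of 27 genes of this response, 12 were called higher and none lower without GC correction, and 12 and none after it. Among all genes tested, 11.5% were called higher without the correction and 5.27% with it. Both fits called 10: Calr, Dnajb11, Herpud1, Hspa5, Hyou1, Manf, Pdia6, Sdf2l1, Syvn1 and Xbp1. The median log2 fold change was 0.12 (0.17 after GC correction).

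Hspa5, the chaperone BiP, is a central target of this response (ENSMUSG00000026864, mm9 chromosome 2 from 34627288 to 34632253). It ran from 513 to 694 CPM (median 617) with celecoxib and 463 to 583 CPM (median 498) with rofecoxib, with a log2 fold change of 0.26 ± 0.06 (edgeR adjusted p = 0.00653; 0.34 after GC correction, adjusted p = 0.00313). Sdf2l1, a component of the chaperone complex, was at 4.57 to 7.62 CPM (median 5.60) against 2.65 to 4.24 CPM (median 3.64), without overlap (0.74 ± 0.12, edgeR adjusted p = 0.00109). It had the largest fold change of the list.

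Xbp1, the transcription factor spliced during the response, was at 147 to 186 CPM (median 176) against 116 to 159 CPM (median 136) (0.34 ± 0.06, edgeR adjusted p = 0.00134). Gene counts do not tell its spliced from its unspliced form. Pdia6, a protein disulfide isomerase, differed by a small amount with little spread, at 139.8 to 161 CPM (median 153) against 121 to 144 CPM (median 128) (0.23 ± 0.04, edgeR adjusted p = 0.00114). Manf, a secreted stress protein, had 0.42 ± 0.09 (edgeR adjusted p = 0.00247) and Hyou1, a large chaperone of the HSP70 family, 0.32 ± 0.06 (edgeR adjusted p = 0.00151). Celecoxib libraries were not alike in these genes. Manf was at 59.7 to 64.7 CPM in celecoxib 1 to 3 and 74.4 to 89.7 CPM in celecoxib 4 to 8, against 48.0 to 64.9 CPM with rofecoxib. Celecoxib 2 lay within the rofecoxib range in Hspa5 (528 CPM), Xbp1 (147 CPM), Pdia6 (143 CPM) and Hyou1 (102 CPM), though not in Sdf2l1. What set these libraries apart was not tested.

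The promoters of Hspa5 (chr2:34771840-34772139, plus strand) and Pdia6 (chr12:17266339-17266638, plus strand) are shown because members of this list share a motif that few other promoters hold. The capitals mark the endoplasmic reticulum stress element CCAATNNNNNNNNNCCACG, the CCAAT box and CCACG at a spacing of 9 bases.
Hspa5: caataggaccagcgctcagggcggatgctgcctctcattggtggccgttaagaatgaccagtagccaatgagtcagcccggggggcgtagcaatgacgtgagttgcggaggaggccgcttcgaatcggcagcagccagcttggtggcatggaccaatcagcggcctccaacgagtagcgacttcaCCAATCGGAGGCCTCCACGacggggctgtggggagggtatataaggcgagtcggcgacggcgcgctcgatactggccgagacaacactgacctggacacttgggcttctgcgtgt
Pdia6: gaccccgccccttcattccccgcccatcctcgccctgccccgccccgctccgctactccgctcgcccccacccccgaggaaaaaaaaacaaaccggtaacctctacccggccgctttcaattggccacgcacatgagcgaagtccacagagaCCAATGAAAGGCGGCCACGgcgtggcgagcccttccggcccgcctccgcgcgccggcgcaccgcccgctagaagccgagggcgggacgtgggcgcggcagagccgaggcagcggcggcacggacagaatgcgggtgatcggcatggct
On either strand the element was in 17 of 9923 windows (0.171%), and 8 of those 17 belonged to this list, in 8 of its 23 members with a window. Of its 10 members called higher that had a window, 5 held it (Calr, Creld2, Hspa5, Pdia6 and Syvn1). Canx, Dnajc3 and Hsp90b1 held it and were not called without GC correction, and after it Hsp90b1 was called higher (0.21, edgeR adjusted p = 0.0103).

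Against control chow, values of these genes were split between the drugs. Hspa5 was 0.31 for celecoxib (edgeR adjusted p = 0.0155) and 0.06 for rofecoxib (adjusted p = 0.574). Sdf2l1 was 0.25 for celecoxib (edgeR adjusted p = 0.274) and -0.49 for rofecoxib (adjusted p = 0.0280). Celecoxib against control called 204 of 14451 genes (1.41%) and rofecoxib against control 766 (5.3%), and the contrasts share their control libraries. With 1 drug library left out in turn, 10 to 13 members were called higher between the drugs, and 9 to 13 after GC correction.

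Mthfd2, a folate-cycle dehydrogenase of mitochondria (ENSMUSG00000005667, mm9 chromosome 6 from 83255483 to 83267802), was among the most clearly separated genes. It ran from 18.1 to 30.1 CPM (median 22.4) with celecoxib and 7.88 to 14.2 CPM (median 11.9) with rofecoxib, a log2 fold change of 0.99 ± 0.13 (edgeR adjusted p = 0.000298; 1.01 after GC correction, adjusted p = 0.000348). It was also called against control for celecoxib (0.84, edgeR adjusted p = 0.00550) and not for rofecoxib (-0.15, adjusted p = 0.482). Of 23 genes of the ATF4, serine and one-carbon list, edgeR called 6 higher and 3 lower, and 3 and 2 after GC correction (2 and 2 in both fits), with a median of 0.06 (0.03). The shares of all genes tested were 11.5% and 11.2%, and 5.27% and 4.63% after GC correction. The higher count was 3 without celecoxib 8 or rofecoxib 8. Stc2, a secreted glycoprotein, was higher in both fits (0.76 ± 0.15, edgeR adjusted p = 0.00247).

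**Figure D3:**
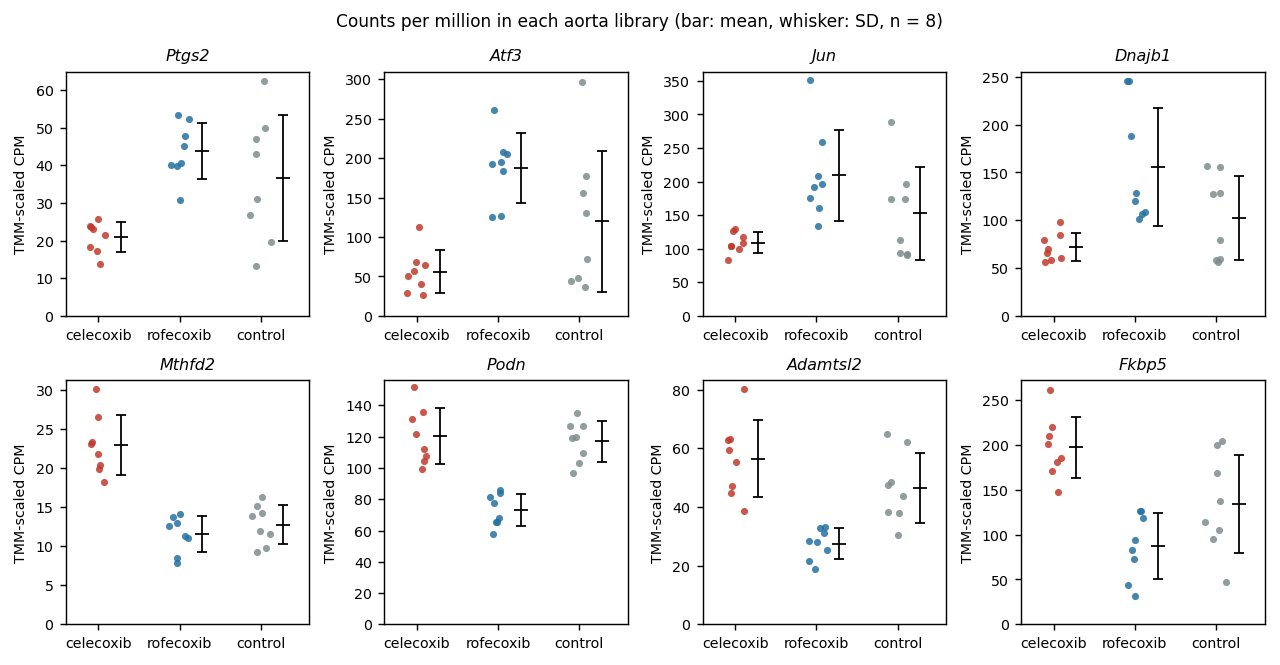
CPM scaled by TMM factors in each library (points) of celecoxib, rofecoxib and control aortas, with the mean and SD of 8 libraries beside them. Libraries of the drugs did not overlap in any of the 8 genes shown, with celecoxib below rofecoxib for the upper row and above it for the lower row.

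Of 26 genes that respond to glucocorticoid hormones, 10 were called higher with celecoxib and none lower, and 6 and none after GC correction. Among all genes tested, 11.5% were called higher without the correction and 5.27% with it. With 1 library left out the count was 8 to 11, and 3 to 7 after GC correction, with 3 without celecoxib 8. The median log2 fold change was 0.30 (0.22 after GC correction). The 6 held calls were Fam107a, Fkbp5, Hif3a, Mt1, Sult1a1 and Tsc22d3.

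Fkbp5, a co-chaperone of the glucocorticoid receptor and one of its standard target genes (ENSMUSG00000024222, mm9 chromosome 17 from 28535838 to 28654671), ran from 148 to 261 CPM (median 193) with celecoxib and 31.1 to 127 CPM (median 88.9) with rofecoxib. The drugs did not overlap, and the log2 fold change was 1.18 ± 0.27 (edgeR adjusted p = 0.00579; 1.15 after GC correction, adjusted p = 0.0128). Controls ran from 46.9 to 205 CPM (median 126), and neither drug was called against them by edgeR (adjusted p = 0.290 for celecoxib and 0.143 for rofecoxib).

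Fam107a, an actin-associated stress gene, separated the drugs too, at 65.9 to 100.4 CPM (median 71.4) against 35.6 to 65.8 CPM (median 49.4) (0.68 ± 0.15, edgeR adjusted p = 0.00419). Hif3a, a hypoxia-inducible factor subunit, had 0.83 ± 0.23 (edgeR adjusted p = 0.0155), and after GC correction its call was lost in 8 of the 16 leave-one-out fits. Tsc22d3, which encodes the anti-inflammatory protein GILZ, had 0.44 ± 0.13 (edgeR adjusted p = 0.0239), and its call was lost without celecoxib 8 (adjusted p = 0.0579). The metallothionein Mt2 and the growth arrest gene Gadd45g were called without GC correction (0.58 ± 0.15 and 0.45 ± 0.12) and not with it (edgeR adjusted p = 0.0596 and 0.213).

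Nr3c2, the mineralocorticoid receptor, was lower with celecoxib. It ran from 12.3 to 29.0 CPM (median 21.2) with celecoxib and 26.1 to 38.1 CPM (median 32.7) with rofecoxib, with a small overlap (-0.64 ± 0.14, edgeR adjusted p = 0.00363; -0.59 after GC correction, adjusted p = 0.0104). Nr3c1, the glucocorticoid receptor, had -0.29 ± 0.08 (edgeR adjusted p = 0.0105) and was not called after GC correction (-0.16, adjusted p = 0.0699). Hormone levels in the mice were not analysed here.

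Of 20 markers of fibroblasts and adventitia, 10 were called higher with celecoxib than with rofecoxib and none lower, and 8 and none after GC correction. The shares of all genes tested called higher were 11.5% and 5.27%. The GC-corrected count was 5 to 9 with 1 library left out, and 5 without celecoxib 4. Both fits called 6: Col1a1, Dpep1, Fbln1, Pcolce, Podn and Serpinf1. The median log2 fold change was 0.32 (0.30 after GC correction). The summed level of the 20 markers ran from 14844 to 20761 CPM with celecoxib, 12988 to 16455 CPM with rofecoxib and 14795 to 20896 CPM in controls, and in whole aorta fewer fibroblasts and less RNA per fibroblast cannot be told apart.

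Podn, or podocan, a small leucine-rich proteoglycan of the vessel wall (ENSMUSG00000028600, mm9 chromosome 4 from 107687194 to 107705144), ran from 99.3 to 152 CPM (median 117) with celecoxib and 57.8 to 86.0 CPM (median 72.9) with rofecoxib. It did not overlap between the drugs, at a log2 fold change of 0.72 ± 0.09 (edgeR adjusted p = 0.000242; 0.59 after GC correction, adjusted p = 0.000599). Controls, at 96.5 to 135 CPM (median 119.7), lay at the level of celecoxib, with 0.04 for celecoxib against control (edgeR adjusted p = 0.861) and -0.68 for rofecoxib (adjusted p = 0.000809).

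Pcolce, which enhances the cutting of procollagen, was at 176 to 269 CPM (median 233) against 129 to 186 CPM (median 165) (0.47 ± 0.09, edgeR adjusted p = 0.00144). Serpinf1, the secreted protein PEDF, was at 355 to 569.9 CPM (median 421) against 197 to 375 CPM (median 294) (0.61 ± 0.12, edgeR adjusted p = 0.00221). Fmod, or fibromodulin, a proteoglycan that binds collagen, was at 232 to 413 CPM (median 307) against 114 to 243 CPM (median 179) (0.83 ± 0.16, edgeR adjusted p = 0.00170). Their ranges overlapped between the drugs by a little, and each call held after GC correction (adjusted p = 0.00971, 0.00971 and 0.00584).

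Of 13 small leucine-rich proteoglycans and procollagen enhancers, 3 were called higher, Fmod, Pcolce and Podn, and after GC correction 5, with Dcn (0.49) and Omd (0.35) added (3 without celecoxib 4). No member was lower in either fit, and the median was 0.16 (0.35 after GC correction). The shares of all genes called higher were 11.5% and 5.27% after GC correction. Adamtsl2, a secreted protein of the fibrillin network outside these lists, was at 38.5 to 80.2 CPM (median 57.4) with celecoxib against 18.9 to 33.2 CPM (median 28.3) with rofecoxib, without overlap (1.04 ± 0.16, edgeR adjusted p = 0.00106; 0.96 after GC correction, adjusted p = 0.00187).

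Most collagen calls were lost with the GC correction. Of 22 tested, 10 were called higher and none lower without it, against 11.5% and 11.2% of all genes tested, at a median of 0.20. With it 1 was called higher, against 5.27% of all genes tested, at a median of 0.07. That 1 was Col1a1, a chain of type I collagen, at 1685 to 2939 CPM (median 2364) with celecoxib and 1128 to 1779 CPM (median 1605) with rofecoxib (0.60 ± 0.13, edgeR adjusted p = 0.00352; 0.43 after GC correction, adjusted p = 0.0347). Its GC-corrected call was lost in 7 of the 16 leave-one-out fits, and without rofecoxib 8 the uncorrected count of collagens called higher was 6. The median transcript GC of the 22 collagens was 55.4%, against 49.9% for all genes tested. Col4a2 and Col18a1 of the basement membrane were called without the correction (0.27 ± 0.07 and 0.27 ± 0.08) and were at 0.05 and 0.05 with it (edgeR adjusted p = 0.603 and 0.685).

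Elastic fibre and crosslinking genes had 6 of 21 called higher and none lower, and 3 higher in both fits: Fbln1, Loxl3 and Ltbp2. All genes tested had 11.5% called higher and 11.2% lower, with 5.27% higher after GC correction and 3.97% higher in both fits. Loxl3, an enzyme that crosslinks collagen and elastin, was at 112 to 135 CPM (median 119.7) against 94.5 to 110.2 CPM (median 99.0), without overlap (0.28 ± 0.05, edgeR adjusted p = 0.00127; 0.21 after GC correction, adjusted p = 0.00441). Among 22 matrix proteases and inhibitors, 8 were called higher and 1 lower, and 3 higher in both fits. The 8 were 4 without celecoxib 8 and 5 without celecoxib 4, rofecoxib 1 or rofecoxib 2. The GC-corrected 3 were 0 without celecoxib 4 or 8 or rofecoxib 7 or 8, and 1 without celecoxib 2 or rofecoxib 2. Adamts2, among these 3, cuts the end off procollagen (0.35 ± 0.08, edgeR adjusted p = 0.00516), and its GC-corrected call was lost in 9 of the 16 leave-one-out fits.

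Growth factor and adhesion genes around the matrix went both ways. Tgfb1, the ligand TGF-beta 1, was higher with celecoxib (0.32 ± 0.08, edgeR adjusted p = 0.00563; 0.28 after GC correction, adjusted p = 0.0150). Its co-receptor Tgfbr3 was lower (-0.27 ± 0.06, edgeR adjusted p = 0.00352). Itga5, the integrin subunit that binds fibronectin, was at 815 to 1257 CPM (median 1049) with celecoxib and 582 to 922 CPM (median 774) with rofecoxib (0.49 ± 0.10, edgeR adjusted p = 0.00324; 0.34 after GC correction, adjusted p = 0.0226). Of 20 genes of TGF-beta signalling, 7 were called higher and 2 lower, but 1 and 2 after GC correction. The 7 were 2 without celecoxib 8, rofecoxib 7 or rofecoxib 8, 3 without rofecoxib 2, and 4 without any 1 of celecoxib 4 to 7 or rofecoxib 3. Of 19 integrin genes 4 were higher and 3 lower, but 2 and 1 after GC correction, and none was then higher without celecoxib 4, celecoxib 8 or rofecoxib 8. For both lists, the shares of all genes tested to set beside them are 11.5% higher and 11.2% lower, or 5.27% and 4.63% after GC correction.

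**Figure D4:**
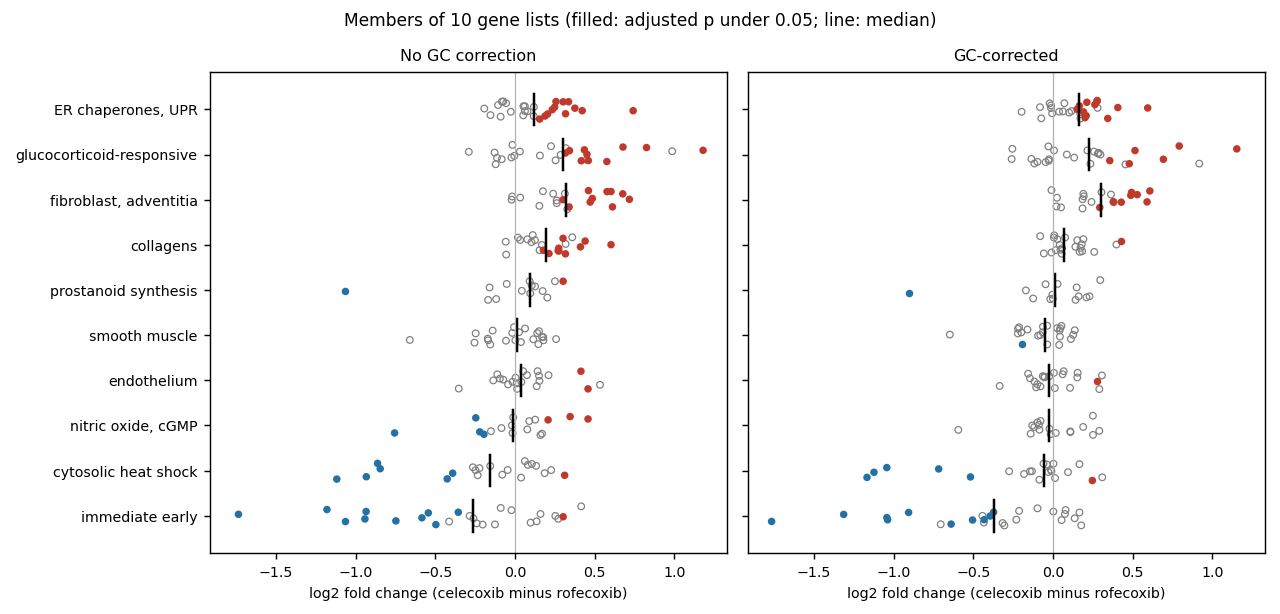
Log2 fold change (celecoxib minus rofecoxib) of each tested member of 10 gene lists, without and with GC correction. Filled points passed an adjusted p of 0.05 in edgeR (red higher, blue lower with celecoxib), open points did not, and the vertical line is the list's median; the collagen median moved from 0.20 to 0.07 and that of immediate early genes from -0.26 to -0.37.

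None of 22 smooth muscle contractile genes was called by edgeR (3 higher and 5 lower at an unadjusted p under 0.05), with a median of 0.01. After GC correction Myl9, a myosin light chain, was called lower (-0.20, edgeR adjusted p = 0.0266). Among all genes tested, 11.5% were called higher and 11.2% lower, and after GC correction 4.63% were lower. Of 21 endothelial markers, 2 were called higher (9.52%, against 11.5% of all genes tested), and 1 after GC correction. Acvrl1, the endothelial receptor ALK1, was at 112 to 146 CPM (median 126) with celecoxib and 84.6 to 103 CPM (median 96.8) with rofecoxib, without overlap (0.41 ± 0.06, edgeR adjusted p = 0.000958; 0.28 after GC correction, adjusted p = 0.00439). Nos3, the endothelial nitric oxide synthase, ran from 38.3 to 56.7 CPM (median 51.0) and 20.2 to 63.3 CPM (median 35.1). It was called at 0.46 ± 0.16 (edgeR adjusted p = 0.0399), a call lost in 11 of the 16 leave-one-out fits and after GC correction (0.29, adjusted p = 0.208).

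Of 17 genes of nitric oxide and cyclic GMP signalling, 3 were called higher and 4 lower, or 17.6% and 23.5%, against 11.5% and 11.2% of all genes tested. None was called after GC correction, where 2 higher and 4 lower had an unadjusted p under 0.05 in edgeR. Higher were Nos3 and the natriuretic peptide receptors Npr1 (0.35 ± 0.07) and Npr2 (0.21 ± 0.05). Lower were Cav1, the main protein of caveolae (-0.20 ± 0.05), the soluble guanylate cyclase subunits Gucy1a3 (-0.22) and Gucy1b3 (-0.25 ± 0.07), and the kinase Prkg1 (-0.76). The 4 lower calls were 2 without celecoxib 7 or 8.

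In the angiotensin and endothelin list, Ace, the angiotensin converting enzyme, was called higher (0.39 ± 0.10, edgeR adjusted p = 0.0110) and Edn1, the endothelin precursor, lower (-0.37 ± 0.12, edgeR adjusted p = 0.0311). Neither was called after GC correction (adjusted p = 0.0723 and 0.108), and the call of Edn1 was lost in 7 of the 16 leave-one-out fits. Among channels and calcium stores, 2 genes held their lower call in both fits. These were Kcnq5, a voltage-gated potassium channel (-0.56 ± 0.12, edgeR adjusted p = 0.00287), and Itpr1, the calcium release channel (-0.28 ± 0.08, edgeR adjusted p = 0.0192), whose call was lost without rofecoxib 8 (adjusted p = 0.0514).

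Of 27 enzymes and receptors that handle drugs and other foreign compounds, 7 were called higher and 2 lower, or 25.9% and 7.41%, against 11.5% and 11.2% of all genes tested (6 and 2 after GC correction, 5 and 1 in both fits), with a median of 0.12 (0.15). Cyp1b1, a cytochrome P450 of vessel wall cells, was at 72.7 to 122 CPM (median 87.9) with celecoxib and 57.6 to 71.9 CPM (median 65.1) with rofecoxib, without overlap (0.48 ± 0.09, edgeR adjusted p = 0.00163; 0.55 after GC correction, adjusted p = 0.00155). Aldh1a1, a retinaldehyde dehydrogenase (0.56 ± 0.15), and the sulfotransferase Sult1a1 (0.46 ± 0.12) were higher in both fits (edgeR adjusted p = 0.0125 and 0.0102).

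Nqo1, a quinone reductase, and Nfe2l2, the factor NRF2 that induces it, were lower with celecoxib in both fits (-0.30 ± 0.07 and -0.31 ± 0.08, edgeR adjusted p = 0.00518 and 0.00940). The NRF2 list as a whole had 2 called higher and 2 lower of 24, against 11.5% and 11.2% of all genes tested. After GC correction it had 1 and 3, against 5.27% and 4.63%, and no member was then lower without celecoxib 3, 5 or 8. Carbonic anhydrases, which sulfonamides such as celecoxib can bind, had none of 11 called (2 higher at an unadjusted p under 0.05 in edgeR, none after GC correction).

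Ppargc1a, the coactivator PGC-1 alpha that drives mitochondrial genes, was at 4.26 to 11.6 CPM (median 5.32) with celecoxib and 7.52 to 20.0 CPM (median 11.7) with rofecoxib (-1.10 ± 0.29, edgeR adjusted p = 0.0119; -0.96 after GC correction, adjusted p = 0.0341). Of 43 nuclear genes of oxidative phosphorylation, 1 was called lower and none higher, against 11.2% and 11.5% of all genes tested, with a median of -0.06. Ppargc1a is also a brown adipocyte marker, and the other 16 markers of that cell type tested were not called. The summed brown adipocyte level was 268 to 821 CPM with celecoxib and 461 to 718 CPM with rofecoxib, and with the mean log2 CPM of the brown adipocyte markers, Ppargc1a included, as a covariate the log2 fold change of Ppargc1a was -0.83 (edgeR adjusted p = 0.0167).

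Irf2bp2 and Map3k6 were among the genes with the smallest p that held in both fits. Irf2bp2, a transcriptional corepressor, was at 78.9 to 96.4 CPM (median 85.1) with celecoxib and 57.2 to 73.2 CPM (median 62.6) with rofecoxib (0.45 ± 0.06, edgeR adjusted p = 0.000125). Map3k6, a kinase of stress signalling, was at 60.3 to 96.4 CPM (median 75.7) against 33.9 to 56.6 CPM (median 44.5) (0.82 ± 0.12, edgeR adjusted p = 0.000818). Neither gene overlapped between the drugs, and both were also called against control for celecoxib (0.30 and 0.66) and not for rofecoxib (-0.15 and -0.16).

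Others higher in both fits without overlap were Mxd4, a repressor of the Myc network (0.32 ± 0.05), Sept8, a septin (0.43 ± 0.06), and Iqsec1, an activator of ARF6 (0.41 ± 0.06). Among the largest folds, Foxs1, a forkhead factor, was at 13.4 to 26.7 CPM (median 21.1) against 6.58 to 12.7 CPM (median 8.97), without overlap (1.11 ± 0.23, edgeR adjusted p = 0.00266). Control levels of Foxs1 spanned both drugs, at 8.06 to 12.7 CPM in controls 1 to 4 and 15.3 to 24.9 CPM in controls 5 to 8. Angptl7, a secreted angiopoietin-like protein, had a similar fold with wide overlap, at 41.9 to 162 CPM (median 61.5) against 17.6 to 66.2 CPM (median 34.5) (1.11 ± 0.28, edgeR adjusted p = 0.00879).

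Lower in both fits and without overlap were Copg2, a coatomer subunit of vesicle transport (-0.37 ± 0.05), Coq10b, a coenzyme Q binding protein (-0.43 ± 0.07), Thnsl2 (-0.35 ± 0.06), Pipox, a peroxisomal oxidase of sarcosine and pipecolic acid (-0.65 ± 0.11), Pot1a, which protects telomeres (-0.38 ± 0.06), and Slc30a1, a zinc exporter (-0.52 ± 0.09). Their edgeR adjusted p-values were 0.000888 to 0.00114. Slc30a1 was at 20.7 to 32.6 CPM (median 24.2) with celecoxib and 33.6 to 41.0 CPM (median 36.0) with rofecoxib. Against a minimum fold of 1.2, edgeR's glmTreat called 5 genes, all higher: Gm22, Mthfd2, Podn, Map3k6 and Adamtsl2. Gm22 is named after its values were seen. No gene was called lower there (smallest adjusted p 0.0695), with 527 higher and 502 lower at an unadjusted p under 0.05.

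Of 22 macrophage and monocyte markers, Cd163, a scavenger receptor of resident macrophages, was called higher (0.57 ± 0.18, edgeR adjusted p = 0.0298; 0.62 after GC correction, adjusted p = 0.0334), and this call was lost in 5 of the 16 leave-one-out fits. The median of the list was 0.22 (0.18 after GC correction), and its summed level was 283 to 540 CPM with celecoxib and 220 to 749 CPM with rofecoxib. No other macrophage marker was called in either fit. None of 22 interferon-responsive genes was called in either fit (none higher and 3 lower at an unadjusted p under 0.05 in edgeR). Beside both lists, 11.5% of all genes tested were called higher and 11.2% lower, or 5.27% and 4.63% after GC correction.

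Among muscle transcripts from outside the vessel, the calls of Mb and Ttn without GC correction rested on 1 library. Mb, or myoglobin, was at 0.0962 to 1.62 CPM (median 0.410) with celecoxib and 0.233 to 43.1 CPM (median 0.631) with rofecoxib, and the highest value was that of rofecoxib 2. It was called lower (-3.34 ± 1.07, edgeR adjusted p = 0.0285), and so was Ttn, or titin (-1.70 ± 0.53, edgeR adjusted p = 0.0266), but without rofecoxib 2 neither was (adjusted p = 0.992 and 0.251). Of 11 skeletal muscle markers tested, these 2 were called lower without GC correction, and Mb and Tcap with it, and none higher. Among all genes tested, 11.2% were called lower, or 4.63% after GC correction. Summed skeletal muscle markers ran from 128 to 278 CPM with celecoxib and 205 to 377 CPM with rofecoxib, highest in rofecoxib 6. None of 10 cardiac muscle markers was called, 4 of them lower at an unadjusted p under 0.05 in edgeR, and all 10 had log2 fold changes below 0 (median -0.89). Without control 6 and rofecoxib 2 together, 3192 genes were called between the drugs, or 1434 after GC correction.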

How the data were processed

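PolyA RNA of 24 thoracic aorta libraries was sequenced. The submitters' processing notes name CASAVA 1.8.2, STAR 2.5.1b and mm9. No counting tool, strand setting or annotation is named in the sources used here. Whole-number counts per gene were deposited by the authors. Library totals differed by only 0.164%, so an unnamed step had equalised them, and raw depth is unknown. Reads of overlapping, antisense or near-identical genes cannot be told apart.

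Genes were filtered with filterByExpr, which left 14451, and scaled with TMM factors (0.959 to 1.03). edgeR 4.0.16 (R 4.3.3) fitted 1 mean per group over all 24 libraries by quasi-likelihood with robust dispersion (21 residual degrees of freedom, common biological coefficient of variation 0.16). Each SE was derived from the log2 fold change and the F statistic (its square root as divisor). GC content came from the longest GENCODE M21 transcript, for 97.4% of genes tested, and the correction used a loess trend per library (span 0.5, genes averaging at least 1 in log2 CPM). The fits were also run on simulated counts, without a GC trend and with a GC trend that was equal in all libraries of a group. Slopes of the real libraries varied within groups, a spread that this simulation did not cover. DESeq2 1.42.0 was the alternative tool, and limma 3.58.1 was loaded with edgeR but fitted no alternative.

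The comparison, the 51 gene lists and the tests were chosen with earlier results of these data known. The rule for named genes took, among genes called in both fits, the 8 smallest p-values and the 5 largest fold changes in each direction. It added up to 4 called members per list by p and 14 genes of prostanoid, nitric oxide, endothelin, angiotensin, carbonic anhydrase and corticosteroid biology, of which Ptgds did not pass the filter. Part of the genes so chosen are named. Other members were named because a list's count needed them, as were Klf6, Fos, Fosb, Nr4a3, Hspa1b, Bag3, Hspa5, Manf, Hif3a and Tsc22d3, after their values were seen.

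Whether replicate numbers pair libraries of the drugs was checked on deviations from group means: same-number correlations ran from -0.34 to 0.28, and 0 of 8 celecoxib libraries correlated best with their own number, so libraries were not paired. The submitters describe the 8 libraries per group as biological replicates, and no label names the animal behind each.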

Additional observations from a re-analysis of the deposited data

Results flagged for a closer look

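Among the named genes and the GC slopes of libraries, 20 of 309 groups of 8 libraries had a highest or lowest library set far from the others (Dixon's test at the 95% level, which flags about 1 in 20 groups by chance). With celecoxib these were library 2 for Ptgs1 (24.1 CPM) and Ptges (7.73 CPM), library 5 for Gadd45g (112 CPM) and Hif3a (19.5 CPM), library 4 for Dpep1 (243 CPM) and Edn1 (20.3 CPM), and library 1 for Ppargc1a (11.6 CPM). Libraries set low were celecoxib 4 for Gldn (18.1 CPM) and celecoxib 1 for Col4a2 (1190 CPM).

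With rofecoxib, library 2 stood high for Mb (43.1 CPM) and Ttn (24.5 CPM), library 4 for Ier5l (15.5 CPM), library 5 for Nos3 (63.3 CPM), library 6 for Pipox (10.0 CPM) and library 7 for Pdia6 (143.5 CPM). Rofecoxib 5 stood low for Copg2 (32.7 CPM). In controls, library 2 stood high for Nr4a1 (393 CPM), library 3 for Mb (4.08 CPM) and Tbxas1 (2.89 CPM), and library 1 for Fos (101.5 CPM).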

How the results depend on the processing

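The count of 3275 genes stayed within 1.5 times with DESeq2 (3603), RLE factors, library totals (3297, of which 44.0% were higher against 50.7%), other filters on low counts (2420 with none), the 16 drug libraries alone and the marker scores as covariates (2985 to 3381). It moved to 1430 (761 higher, 669 lower) with GC correction, 1549 (829, 720) with GC and length correction, 1434 (733, 701) with GC correction without control 6 and rofecoxib 2, 1404 (722, 682) with GC correction in the 16 drug libraries alone, and 5 (5, 0) with glmTreat. With 1 library left out it ran from 2147 (without rofecoxib 8, 1029 lower) to 3739 (up to 1835 higher and 1904 lower, without celecoxib 2), and with GC correction from 826 to 1842 (434 to 935 higher, 363 to 907 lower). With the replicate number as a block, which does not pair these libraries, it was 3193, and 1515 (785, 730) with the block and GC correction. GC-corrected fits with 1 library left out, the cardiac muscle score and the GC-corrected fits on fewer libraries were chosen after seeing the data.

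Of 97 called named genes, 86 stayed called in each planned setting without GC correction, glmTreat apart, and 79 were called with GC correction. Of these 79, 24 lost the call in at least 1 of 16 GC-corrected fits with 1 library left out, among them Col1a1, Itga5, Ppargc1a, Nfe2l2, Nqo1, Lats1, Ltbp2, Itpr1, Cd163 and Dnajb4. The cause of these losses was not tested. Ptgs1 changed sign, to below 0 without celecoxib 2, rofecoxib 1 or rofecoxib 3, with and without GC correction, and ran from -0.0532 (GC-corrected, without celecoxib 2) to 0.120 (without rofecoxib 5). The difference in GC slope was 1.86, with an exact permutation p of 0.0020 over genes at an average log2 CPM of at least 4 (1.84) and 0.0026 without rofecoxib 2 (1.87). Equalised totals leave the precision per library unknown.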
